A study of Mus musculus with 3 samples.

Results

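The array of E3 epiblast stem cells was set against the array of CGR8 embryonic stem cells, which are 2 of the 3 arrays of the series. All probes with a gene symbol entered, and 7698 of 16593 genes gave a difference and are called measured below. E3 epiblast stem cells had a hybrid genetic background and grew on inactivated CF1 mouse embryonic fibroblasts in KSR medium with 5 ng/ml FGF2, and collagenase IV was used to lift them off with few feeders. The E3R line, reverted from E3, is given beside the values; it grew on gelatin in KSR medium with 1 µM PD0325901, an inhibitor of the ERK kinase MEK, 3 µM CHIR99021, an inhibitor of GSK3, and 1000 U LIF. CGR8 embryonic stem cells had the same substrate and medium, and both were harvested on the dish. The labels name no further treatment. With 1 array for each line, no difference has a replicate check, and differences are given as sizes without a test. Line, genetic background, medium, feeder layer and harvest differed together between epiblast and embryonic stem cells, so what each contributes cannot be told apart. In bulk RNA, fewer cells that express a gene and less RNA per cell cannot be told apart either.

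Mouse pluripotent cells are kept in culture in different states. Naive embryonic stem cells resemble the epiblast before implantation, are held by LIF acting through STAT3, and stay undifferentiated when MEK and GSK3 are inhibited. Primed epiblast stem cells resemble the epiblast after implantation, need FGF and Activin or Nodal signals, and form a flat epithelium. Both states use Pou5f1 (Oct4), Sox2 and Nanog, while the naive network adds factors such as Esrrb, Klf4 and Zfp42.

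Signals below are raw bead intensities, from which the background had not been subtracted; the lowest signal of any probe was 70.5 on the epiblast, 66.5 on the reverted and 69.8 on the embryonic array. A probe was detected where its detection p-value against negative controls was under 0.01. Folds come from background-corrected, quantile-normalized log2 signals, as epiblast minus embryonic stem cells. Where a gene was not detected on the dimmer array, that array entered at the lowest normalized signal of its detected probes, or at the gene's own signal if higher, and the fold is written as "at least". The error given with a signal is the standard error over the beads of a probe on that array, which leaves out variation between cultures, extracts and arrays. Detected probes numbered 10791 (42%) on the epiblast, 9994 (38.9%) on the reverted and 9860 (38.4%) on the embryonic array.

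The markers of both states were chosen with earlier results of these data known, so their signals describe the arrays and do not check the labels. Trh, the gene for the thyrotropin-releasing hormone precursor, had a signal of 18810 ± 784 in epiblast, 271 ± 11.5 in reverted and 171 ± 7.95 in CGR8 cells (bead standard error). Lefty1, a secreted antagonist of Nodal, had 4559 ± 191 in epiblast, 359 ± 15.3 in reverted and 245 ± 9.70 in CGR8 cells, and the POU factor gene Pou3f1, also called Oct6, had 657 ± 35.8 in epiblast, 113 ± 5.15 in reverted and 118 ± 4.22 in CGR8 cells. These 3 markers were high on the epiblast array alone, by 163-fold, 25.2-fold and 12.4-fold over embryonic stem cells. The orphan nuclear receptor gene Esrrb, part of the naive network, had 110.2 ± 3.79 in epiblast, 3312 ± 84.3 in reverted and 3671 ± 117 in CGR8 cells. Dnmt3l, a catalytically inactive cofactor of de novo DNA methylation, had 141 ± 6.49 in epiblast, 3572 ± 141 in reverted and 6465 ± 169 in CGR8 cells. Both were dim on the epiblast array and bright on the other arrays, 81.9-fold lower and 89.9-fold lower in epiblast than in embryonic stem cells.

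**Figure D1:**
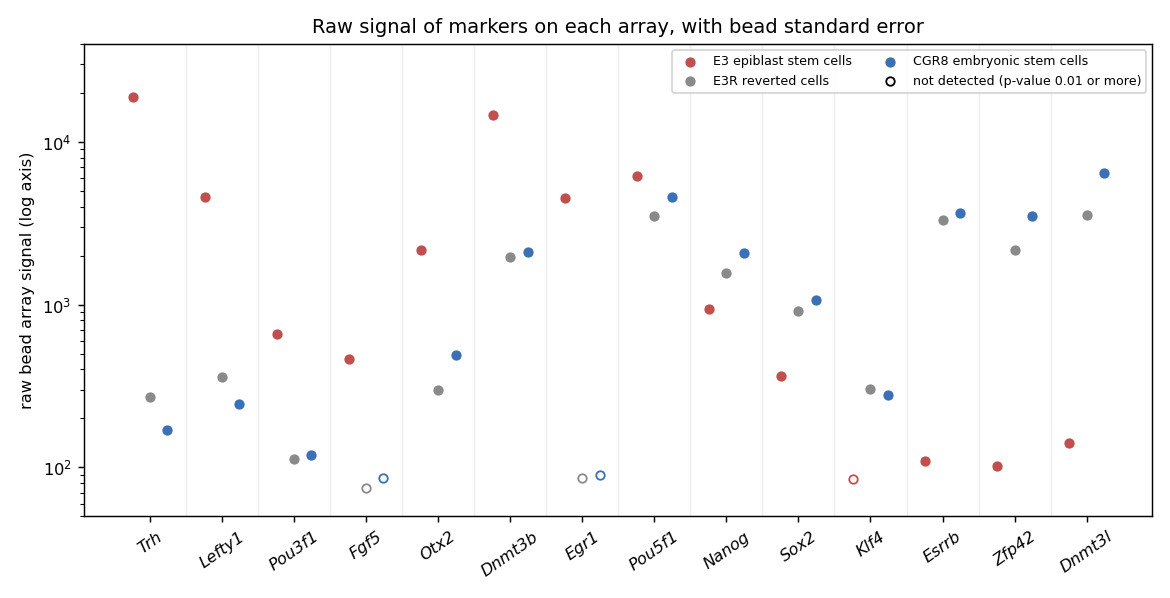
Raw bead array signal (log axis) of 14 genes in E3 epiblast stem cells (red), E3R reverted cells (grey) and CGR8 embryonic stem cells (blue), 1 array each; bars for the bead standard error are smaller than the points, and open points were not detected. Trh to Egr1 are highest on the epiblast array, Nanog to Dnmt3l are lowest there, and Pou5f1 lies close on all 3 arrays.

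The upstream sequences of 6 genes that mark the difference are shown because these genes separate the states by 6-fold or more, and germline genes, such as the last 2, are as a class known for silencing by CpG methylation. Each is the 250 bases before the start in the RefSeq table built on GRCm38.p6, printed 5′ to 3′ in the direction of the gene, with every CG (CpG, the site of DNA methylation) in capitals. The first 3 belong to genes higher in epiblast stem cells and the other 3 to genes lower there.
Trh, chr6:92244651-92244900, minus strand: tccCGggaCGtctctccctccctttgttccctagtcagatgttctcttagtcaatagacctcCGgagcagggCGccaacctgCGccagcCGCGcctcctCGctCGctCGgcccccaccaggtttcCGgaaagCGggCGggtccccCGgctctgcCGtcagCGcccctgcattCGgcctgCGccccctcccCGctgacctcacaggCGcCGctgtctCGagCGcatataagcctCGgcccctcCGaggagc
Fgf5, chr5:98253934-98254183, plus strand: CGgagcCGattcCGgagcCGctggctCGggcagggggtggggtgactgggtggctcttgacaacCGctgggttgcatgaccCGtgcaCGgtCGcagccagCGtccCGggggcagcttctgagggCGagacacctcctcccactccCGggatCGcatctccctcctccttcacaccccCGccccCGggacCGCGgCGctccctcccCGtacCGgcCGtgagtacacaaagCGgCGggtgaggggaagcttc
Dnmt3b, chr2:153649199-153649448, plus strand: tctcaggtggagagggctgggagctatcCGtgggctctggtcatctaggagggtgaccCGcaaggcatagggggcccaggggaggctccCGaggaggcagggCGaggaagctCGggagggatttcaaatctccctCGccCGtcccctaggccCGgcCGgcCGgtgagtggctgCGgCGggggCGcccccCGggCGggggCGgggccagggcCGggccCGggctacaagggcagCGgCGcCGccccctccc
Zfp42, chr8:43307010-43307259, minus strand: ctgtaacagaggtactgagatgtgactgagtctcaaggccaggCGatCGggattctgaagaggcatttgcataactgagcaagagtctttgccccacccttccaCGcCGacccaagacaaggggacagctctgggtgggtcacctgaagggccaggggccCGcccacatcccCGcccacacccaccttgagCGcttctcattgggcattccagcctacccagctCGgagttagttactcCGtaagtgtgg
Ooep, chr9:78378589-78378838, minus strand: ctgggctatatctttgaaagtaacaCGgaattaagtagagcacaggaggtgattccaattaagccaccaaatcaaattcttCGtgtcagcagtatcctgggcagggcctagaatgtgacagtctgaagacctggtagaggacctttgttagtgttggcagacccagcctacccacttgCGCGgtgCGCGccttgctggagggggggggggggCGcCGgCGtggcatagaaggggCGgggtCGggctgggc
Rhox5, chrX:37754358-37754607, plus strand: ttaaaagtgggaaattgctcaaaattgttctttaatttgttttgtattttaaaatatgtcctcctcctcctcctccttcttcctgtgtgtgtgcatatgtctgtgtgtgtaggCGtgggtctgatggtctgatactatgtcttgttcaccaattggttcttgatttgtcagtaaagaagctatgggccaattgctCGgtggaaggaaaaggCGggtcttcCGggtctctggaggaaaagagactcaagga

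The first 3 held 25 CpG (Trh), 24 (Fgf5) and 21 (Dnmt3b), and the others 9 (Zfp42), 11 (Ooep) and 4 (Rhox5). Of 32851 upstream windows of this length in the table, 10.7% held as many as Trh or more, 12% as many as Fgf5, 16.3% as many as Dnmt3b, 40.3% as many as Zfp42, 35.6% as many as Ooep and 62.2% as many as Rhox5. Windows with 20 or more CpG made up 17.9% of the table but 35% of those of measured genes, so such counts were more common among the genes compared. The contrast between both sets of 3 was not a feature of the differing genes at large. The median was 14.0 CpG for 173 of 220 genes at least 4-fold higher that have an entry, 12.2 for 224 of 282 genes at least 4-fold lower, and 16 for 6316 of 7698 genes with a value. DNA methylation itself was not measured.

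Similar numbers of genes lay above and below after quantile normalization. This step gives the arrays a shared distribution of signals, so the balance is in part set by it. Under median scaling in its place, 1168 genes (15.1%) were at least 2-fold higher and 979 (12.6%) lower. The counts that follow are after quantile normalization. Epiblast stem cells had 1067 of 7698 genes (13.9%) higher by 2-fold or more and 1035 (13.4%) lower, together 27.3%, and 72.7% were within 2-fold, bounds under 2-fold included. These shares are the background against which each gene group below is read. The groups were listed with earlier results of these data known, so a share that departs from the background is a description. On both arrays 6281 genes were detected, 1168 only on the epiblast array and 605 only on the embryonic array. Among genes detected on both, 825 were at least 2-fold higher and 825 lower; the others, 242 higher and 210 lower, are bounds. The large differences lay more often downward: 47 genes were at least 8-fold higher and 99 lower, and 4 were at least 32-fold higher and 17 lower. For genes detected on both arrays the median absolute log2 difference was 0.574 and the median bead standard error of a difference 0.13. Sizes depend on the background model. Without background correction 538 genes were at least 2-fold higher and 572 lower, and with a model offset of 50 in place of 16 690 were higher and 721 lower. Of 177 genes past 2-fold named here, leaving out the background correction shrank the fold of 98 by more than 1.5 times. None changed direction under the alternatives run, but a bound cannot reverse and most of these settings rescale the same probe.

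**Figure D2:**
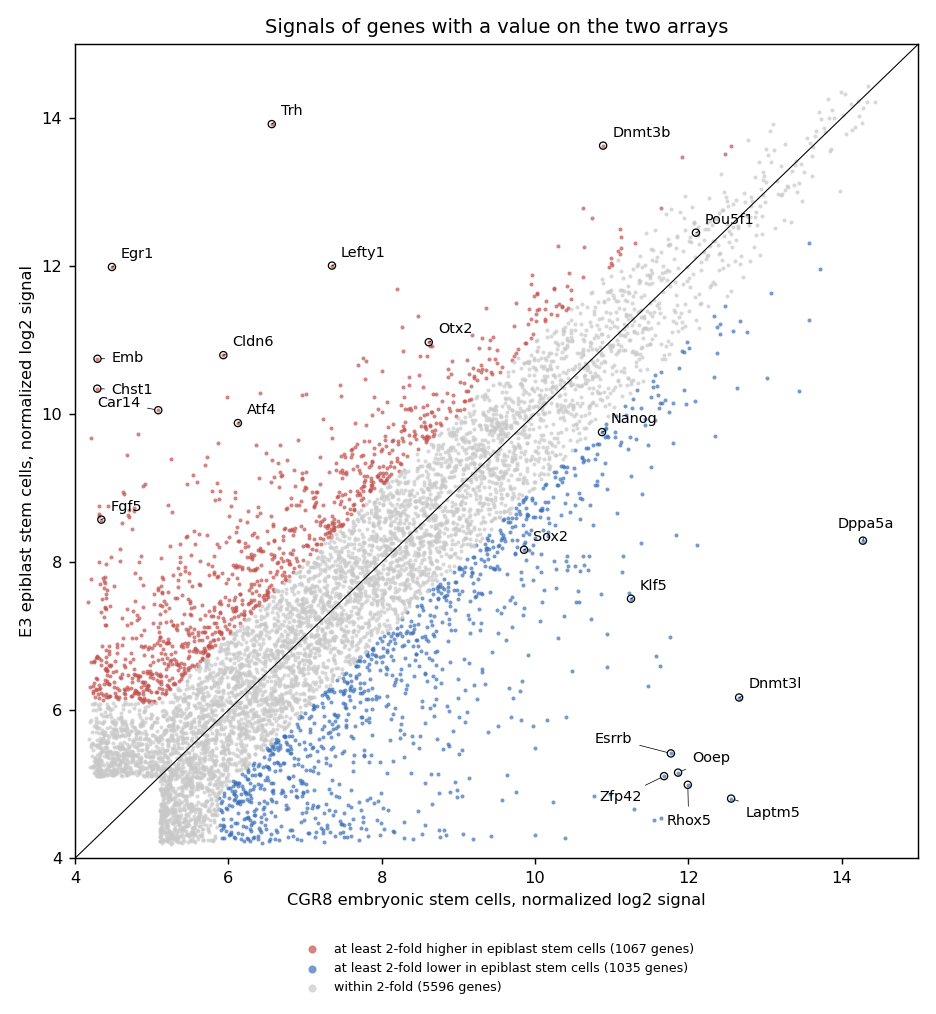
Normalized log2 signal of 7698 genes with a value on the embryonic stem cell array (horizontal) and the epiblast stem cell array (vertical), 1 point a gene, with the line of equal signal. The 1067 red genes lie at least 2-fold above it and the 1035 blue genes at least 2-fold below it; Trh and Rhox5 lie among the farthest, and the grey edges at low signal are genes bounded by the detection floor.

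The 12 largest differences upward among genes detected on both arrays were Trh, Lefty1 and Pou3f1 with 9 genes of mixed function. Cldn6, a tight junction claudin of early epithelia, had 1932 in epiblast, 139.9 in reverted and 134 in CGR8 cells and was 29.1-fold higher. Ddx25, an RNA helicase gene known from testis, had 1296 in epiblast, 164 in reverted and 136 in CGR8 cells and was 19.1-fold higher. Nabp2, a single-strand DNA binding protein gene of the DNA damage response, had 751 in epiblast, 110.4 in reverted and 109 in CGR8 cells and was 17.7-fold higher. In these 3 genes the reverted signal was close to the embryonic one. Atf4, the central transcription factor of the integrated stress response, had 1021 in epiblast, 717 in reverted and 143 in CGR8 cells and was 13.5-fold higher, and here the reverted signal lay near the epiblast one. The mitochondrial import gene Timm21 was 14.7-fold higher, the complement inhibitor gene Cd59a 13.3-fold higher, and the linker histone gene H1f10 12.9-fold higher. The potassium channel gene Kcnk1 was 12.2-fold higher and Mlf1 12.1-fold higher. The normalized signal in reverted cells lay nearer to the embryonic than to the epiblast one in 11 of these 12 genes, with Atf4 as the exception. It was within 2-fold of the embryonic one in 7 of the 12. Taking the mean of all probes brought the log2 difference to 2.85, against 3.88, for Timm21 and to 2.94, against 3.60, for Mlf1.

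Among genes detected in epiblast but not in embryonic stem cells, the largest bound belonged to Egr1, an immediate early transcription factor induced by ERK. Its signal was 4497 in epiblast, 86.5 in reverted (not detected) and 90.3 in CGR8 cells (not detected), at least 118-fold higher. Emb, which encodes the membrane glycoprotein embigin, had 1852 in epiblast, 152 in reverted and 83.3 in CGR8 cells (not detected) and was at least 49.98-fold higher. Chst1, a keratan sulfate sulfotransferase gene, had 1400 in epiblast, 80.2 in reverted (not detected) and 83.2 in CGR8 cells (not detected) and was at least 37.8-fold higher. All 3 were bright in epiblast stem cells alone. The membrane carbonic anhydrase gene Car14 was at least 30.9-fold higher, the serine protease gene Klk8 at least 24.7-fold higher, the RNA-binding protein gene Rbmx at least 20.4-fold higher and the PCNA-binding factor gene Pclaf at least 15.5-fold higher. Thumpd1, which assists the enzyme that acetylates tRNA, had 896 in epiblast, 883 in reverted and 77.4 in CGR8 cells (not detected) and was at least 23.9-fold higher, so that it was detected in both E3-derived cultures and not in CGR8. The normalized signal in reverted cells, undetected ones included, was nearer to the embryonic one in 7 of these 8 genes. It was within 2-fold of the embryonic one in 4 of the 8. Bounds are not ranked against the measured differences.

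The largest differences downward were led by genes of the naive state and the germline. Rhox5, an X-linked reproductive homeobox gene, had 98.6 in epiblast, 2535 in reverted and 4266 in CGR8 cells and was 128-fold lower. Ooep, a component of the maternal complex of the oocyte, had 103 in epiblast, 4551 in reverted and 3895 in CGR8 cells and was 105-fold lower. Zfp42, the zinc finger factor Rex1, had 101 in epiblast, 2170 in reverted and 3513 in CGR8 cells and was 95.3-fold lower. All 3 were bright in reverted and embryonic stem cells and barely above detection in epiblast stem cells. Dppa5a, an RNA-binding protein gene of early embryos, had 392 in epiblast, 14746 in reverted and 18234 in CGR8 cells and was 63.4-fold lower, and its log2 difference of -5.99 became -3.87 with the mean of its probes. Dppa4, a chromatin factor gene, had 149.9 in epiblast, 4194 in reverted and 3057 in CGR8 cells and was 35.3-fold lower, and its log2 difference of -5.14 became -2.60 with the mean of its probes. Both stayed past 2-fold that way. Gab1, a docking protein of receptor tyrosine kinases, had 198 in epiblast, 3485 in reverted and 3655 in CGR8 cells and was 27.5-fold lower. Lama1, the laminin α1 chain of early basement membranes, had 96.1 in epiblast, 445 in reverted and 999.8 in CGR8 cells and was 28.9-fold lower. The organelle transport gene Mreg was 33-fold lower, the F-box gene Fbxo15 28.7-fold lower and the myosin light chain gene Mylpf 22.9-fold lower. In all 12 genes of this set, Esrrb and Dnmt3l included, the normalized signal in reverted cells lay within 2-fold of the embryonic one; the raw signals of Lama1 are farther apart.

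Genes detected in embryonic but not in epiblast stem cells gave further bounds. Laptm5, a lysosomal membrane protein gene best known from blood cells, had 94.2 in epiblast (not detected), 4015 in reverted and 6109 in CGR8 cells and was at least 206-fold lower. Aard, a gene named for its alanine and arginine rich domain, had 88.4 in epiblast (not detected), 1673 in reverted and 3455 in CGR8 cells and was at least 109.6-fold lower. Tcl1, a co-activator of the kinase AKT, had 80.7 in epiblast (not detected), 1330 in reverted and 1516 in CGR8 cells and was at least 45.7-fold lower. These 3 were near the array background in epiblast stem cells. The water and glycerol channel gene Aqp3 was at least 69.0-fold lower and the α-kinase gene Alpk3 at least 41.1-fold lower. Tuba3a was at least 102-fold lower, Xlr4a at least 85.8-fold lower and Gstp2 at least 59.6-fold lower; these belong to families with near-identical copies, which their probes may not tell apart. After normalization, the signal in reverted cells was within 2-fold of the embryonic one in 7 of the 8 genes. Averaging all probes of a gene reduced the log2 difference to -4.49, against -5.52, for Tcl1.

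Naive pluripotency genes were lower almost as a group. This list was written with earlier results of these data known, so its share describes the members and is not a test. Of 23 measured, 21 (91.3%) were lower by 2-fold or more in epiblast stem cells, 8 of them as bounds, against 13.4% of all genes, and the median log2 difference was -4.06 against 0.013 over all genes. Klf4, a Krüppel-like factor of the naive network, had 85.1 in epiblast (not detected), 303 in reverted and 277 in CGR8 cells and was at least 6.58-fold lower. The median of the list was -2.70 without background correction. The 1 member at least 2-fold higher was Eras, a constitutively active Ras of embryonic stem cells, with 851 in epiblast, 248 in reverted and 291 in CGR8 cells, 3.79-fold higher. Dppa3, a gene of naive cells and early germ cells, was within 2-fold and is named after its value was seen, at 1.21-fold lower with 111 in epiblast, 225 in reverted and 125 in CGR8 cells.

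Primed epiblast genes, also listed with earlier results of these data known, lay the other way. Of 24 measured, 16 (66.7%) were higher by 2-fold or more, 6 of them as bounds, against 13.9% of all genes, with a median log2 difference of 2.06. Fgf5, a growth factor of the post-implantation epiblast, had 462 in epiblast, 74.4 in reverted (not detected) and 85.6 in CGR8 cells (not detected) and was at least 11.1-fold higher. Otx2, a homeobox gene of the primed state and the forebrain, had 2173 in epiblast, 298 in reverted and 493 in CGR8 cells and was 5.13-fold higher. Pim2, a serine/threonine kinase gene, had 574 in epiblast, 81.2 in reverted (not detected) and 94.1 in CGR8 cells (not detected) and was at least 14.4-fold higher. In these 3 genes the epiblast array stood alone. The 2 members at least 2-fold lower were Etv5, an ETS factor, with 259 in epiblast, 424 in reverted and 572 in CGR8 cells, 2.47-fold lower, and the bHLH gene Tcf15, named after its value was seen, with 159 in epiblast, 265 in reverted and 293 in CGR8 cells, 2.32-fold lower. The mean of all probes reduced the log2 difference to 2.49, against 3.85, for Pim2.

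Factors shared by both states went either way. Of 16 measured, 4 (25%) were higher by 2-fold or more and 3 (18.8%) lower, with a median of -0.07. Pou5f1 had 6216 in epiblast, 3487 in reverted and 4606 in CGR8 cells, 1.28-fold higher and within 2-fold. Nanog had 944 in epiblast, 1569 in reverted and 2066 in CGR8 cells and was 2.17-fold lower, and Sox2 had 365 in epiblast, 911 in reverted and 1076 in CGR8 cells and was 3.23-fold lower. Thus among the core factors Oct4 was within 2-fold while Nanog and Sox2 were lower in epiblast stem cells. Utf1, a chromatin-associated factor gene of pluripotent cells, had 1768 in epiblast, 386 in reverted and 292 in CGR8 cells and was 7.88-fold higher. The RNA-binding protein gene Lin28a was 4.51-fold higher, L1td1 4.26-fold higher and the zinc finger gene Zscan10 4.14-fold higher. The log2 difference shrank with the mean of all probes to -1.03, against -1.69, for Sox2.

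The media act on several signalling pathways, and their genes were read pathway by pathway. FGF ligands bind receptors that act through Gab1 and Ras on the kinases MEK and ERK. Of 13 measured genes of this cascade, 4 (30.8%) were higher by 2-fold or more and 2 (15.4%) lower, with a median of -0.21. The ligand genes did not go one way. Fgf8 had 332 in epiblast, 72.8 in reverted (not detected) and 84.0 in CGR8 cells (not detected) and was at least 7.46-fold higher, and Fgf15 had 188 in epiblast, 91.8 in reverted (not detected) and 105 in CGR8 cells (not detected) and was at least 3.41-fold higher. Fgf4, the ligand that embryonic stem cells themselves secrete, had 131 in epiblast, 389 in reverted and 582 in CGR8 cells and was 7.46-fold lower. The other 2 members higher were Fgf5 and Eras and the other lower gene was Gab1. The log2 difference came within 2-fold without background correction for Fgf15 (0.87).

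Genes that respond to ERK were more often higher. Of 21 measured, 7 (33.3%) were higher by 2-fold or more, 2 of them as bounds, and 2 (9.5%) lower, with a median of 0.60, or 0.29 without background correction. Besides Egr1, the immediate early factor gene Fos had 685 in epiblast, 115 in reverted and 193 in CGR8 cells and was 5.22-fold higher. Ccnd1, which encodes cyclin D1, had 1460 in epiblast, 560 in reverted and 258 in CGR8 cells and was 7.68-fold higher. Dusp4, an ERK phosphatase and feedback inhibitor, had 278 in epiblast, 92.9 in reverted (not detected) and 122 in CGR8 cells and was 4.16-fold higher. Fos, Dusp4 and Egr1 were dim in both cultures with MEK inhibitor, while Ccnd1 was intermediate in reverted cells. The matricellular gene Ccn1 was at least 4.71-fold higher; it is also on the fibroblast list. In the other direction Ier3, an early response gene, had 521 in epiblast, 588 in reverted and 1878 in CGR8 cells and was 3.86-fold lower, as Etv5 was lower. Taking the mean of all probes brought the log2 difference to 1.12, against 2.06, for Dusp4 and to 1.15, against 2.24, for Ccn1.

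LIF acts through STAT3, and genes of this pathway were more often lower. Of 20 measured, 7 (35%) were lower by 2-fold or more, 2 of them as bounds, and 2 (10%) higher, with a median of -0.70. Gbx2, a homeobox gene induced by STAT3, had 99.5 in epiblast, 587 in reverted and 613 in CGR8 cells and was 15.2-fold lower. Klf5 had 253 in epiblast, 3216 in reverted and 2641 in CGR8 cells and was 13.4-fold lower. Socs3, the feedback inhibitor of the pathway, had 312 in epiblast, 1623 in reverted and 1835 in CGR8 cells and was 6.97-fold lower. In all 3 both cultures with LIF stood together above epiblast stem cells. Stat3 itself had 248 in epiblast, 433 in reverted and 588 in CGR8 cells and was 2.70-fold lower. Fos, which also answers to ERK, was higher.

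For the Wnt pathway, which GSK3 inhibition activates, shares were near those of all genes, with 3 of 18 (16.7%) higher by 2-fold or more and 3 (16.7%) lower and a median of -0.13. Sfrp1, a secreted Wnt antagonist, had 139.7 in epiblast, 467 in reverted and 524 in CGR8 cells and was 5.90-fold lower. Tcf7l1, the repressor of Wnt targets in pluripotent cells, had 3055 in epiblast, 778 in reverted and 778 in CGR8 cells and was 4.21-fold higher. Ctnnb1, which encodes β-catenin, was 2.11-fold lower, the Wnt deacylase gene Notum at least 2.07-fold lower and the ligand gene Wnt8a at least 2.25-fold higher. Log2 differences within 2-fold were obtained without background correction for Notum (-0.41) and Wnt8a (0.51); with an offset of 50 for Notum (-0.58) and Wnt8a (0.70); with median scaling for Ctnnb1 (-0.99); with the mean of all probes for Ctnnb1 (-0.42) and Wnt8a (0.62). Averaging all probes of a gene reduced the log2 difference to 1.49, against 2.08, for Tcf7l1.

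Nodal and Activin ligands act through SMAD2 and SMAD3, and Lefty proteins inhibit them. Among 19 measured genes 4 (21.1%) were at least 2-fold higher and 3 (15.8%) lower, with a median of 0.05. The ligand gene Nodal had 687 in epiblast, 275 in reverted and 261 in CGR8 cells and was 3.40-fold higher. Foxh1, a DNA-binding partner of these SMADs, had 291 in epiblast, 109 in reverted and 137 in CGR8 cells and was 3.42-fold higher. Lefty1 was among the largest differences, while Lefty2 had 384 in epiblast, 312 in reverted and 241 in CGR8 cells, 1.92-fold higher and thus within 2-fold. The target gene Gsc, a homeobox gene of the organizer, had 147 in epiblast, 235 in reverted and 412 in CGR8 cells and was 4.08-fold lower. Tgfbi, a matrix protein gene induced by TGF-β, was 7.07-fold lower and the Activin subunit gene Inhbb at least 3.03-fold lower. The log2 difference came within 2-fold without background correction for Inhbb (-0.70), and with an offset of 50 for Inhbb (-0.96). The mean of all probes reduced the log2 difference to -2.19, against -2.82, for Tgfbi.

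The BMP pathway gave few values. Of 21 genes on the array 11 were detected on neither array, and of 9 measured 0 were higher by 2-fold or more and 2 (22.2%) lower. The ligand gene Bmp4 had 96.6 in epiblast, 121 in reverted and 171 in CGR8 cells and was 3.16-fold lower, and Id1, a target and inhibitor of bHLH factors, had 98.2 in epiblast, 141 in reverted and 192 in CGR8 cells and was 3.65-fold lower. The receptor gene Acvr1 (1.29-fold lower), Smad1 (1.56-fold lower), Smad6 (1.46-fold lower) and Smad5 (1.80-fold higher) were within 2-fold. Other processing put the log2 difference within 2-fold, without background correction for Bmp4 (-0.75) and Id1 (-0.89).

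**Figure D3:**
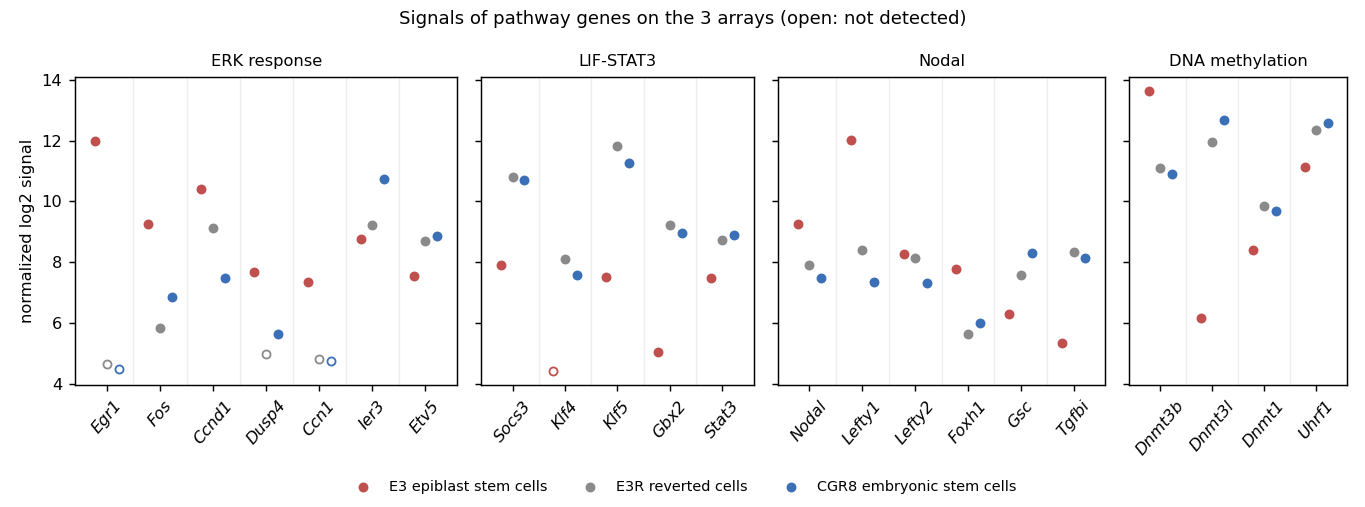
Normalized log2 signal of named genes of 4 pathways in E3 epiblast stem cells (red), E3R reverted cells (grey) and CGR8 embryonic stem cells (blue), 1 array each; open points were not detected. Egr1, Fos and Dusp4 are highest in epiblast stem cells, Socs3, Klf4, Klf5 and Gbx2 are lowest there, and Dnmt3b and Dnmt3l lie in opposite order.

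DNA methylation genes went in opposite directions. Dnmt3b, a de novo methyltransferase gene, had 14621 in epiblast, 1963 in reverted and 2099 in CGR8 cells and was 6.68-fold higher, whereas its cofactor Dnmt3l was lower as given above. Of 12 measured, 5 (41.7%) were lower by 2-fold or more and 2 (16.7%) higher, and the median was 0.17. Dnmt1, the maintenance methyltransferase gene, had 416 in epiblast, 887 in reverted and 962 in CGR8 cells and was 2.41-fold lower. Uhrf1, which brings Dnmt1 to replicated DNA, had 2427 in epiblast, 4699 in reverted and 6195 in CGR8 cells and was 2.75-fold lower. Both maintenance genes were thus lower in epiblast stem cells, at signals well above background. Gadd45b, linked to active demethylation, was 5.51-fold lower and the cytidine deaminase gene Apobec1 3.15-fold lower. Log2 differences within 2-fold were obtained without background correction for Apobec1 (-0.87).

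Germline genes, many of which are silenced by DNA methylation in somatic cells, were lower where they could be measured. Of 40 on the array 21 were detected on neither array, and of 19 measured 14 (73.7%) were lower by 2-fold or more, 8 of them as bounds, and 0 higher. The median was -3.02, or -1.67 without background correction. A gene detected on 1 array only can give a bound in 1 direction only. Of the 8 detected on both arrays 6 were lower by 2-fold or more and 0 higher, with a median of -4.54. Rhox5, Ooep, Zfp42 and Dppa4 were among those measured on both arrays and Tuba3a and Xlr4a among the bounds, and Ooep and Zfp42 also count among the naive genes. The upstream windows of 11 of these 14 genes held a median of 9.0 CpG, against 16 over genes with a value and 6.0 over all windows of the table. Within the X-linked Rhox, Xlr and Mage families, 5 of 11 (45.5%) were lower, 4 as bounds, and 0 higher, with a median of -0.42. Of the 4 detected on both arrays 1 was lower, with a median of -0.04. Rhox9 was at least 2.70-fold lower, Magea2 at least 8.14-fold lower and Magea5 at least 3.92-fold lower, the last 2 of a family with near-identical copies, while Maged2, widely expressed, was 1.91-fold higher and within 2-fold. Xist, the RNA of X inactivation, was detected on none of the 3 arrays. The Y-linked gene Eif2s3y had 419.7 in epiblast, 366 in reverted and 447 in CGR8 cells. A log2 difference within 2-fold was given without background correction for Magea5 (-0.92) and Rhox9 (-0.60); with an offset of 50 for Rhox9 (-0.83); with the mean of all probes for Magea5 (-0.33). The log2 difference shrank with the mean of all probes to -1.24, against -3.03, for Magea2.

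Imprinted genes, expressed from 1 parental allele, were more often higher. Of 20 measured, 8 (40%) were higher by 2-fold or more, 2 of them as bounds, and 2 (10%) lower, with a median of 0.65; without background correction 4 were higher. Grb10, an adaptor that restrains insulin and growth factor receptors, had 3695 in epiblast, 364 in reverted and 389.5 in CGR8 cells and was 11.3-fold higher. Cdkn1c, a cyclin-dependent kinase inhibitor gene, had 651 in epiblast, 154 in reverted and 179 in CGR8 cells and was 5.57-fold higher. Both were high in epiblast stem cells alone. Gnas, which encodes the stimulatory G protein subunit, was 3.81-fold higher, the placental growth regulator gene Phlda2 2.95-fold higher, Nnat at least 2.73-fold higher and the proteoglycan gene Dcn at least 2.51-fold higher. The log2 difference came within 2-fold without background correction for Dcn (0.60) and Nnat (0.67); with an offset of 50 for Dcn (0.81) and Nnat (0.90); with the mean of all probes for Dcn (0.53), Gnas (0.93) and Nnat (0.31).

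Epithelial genes were more often higher in epiblast stem cells. Of 22 measured, 10 (45.5%) were higher by 2-fold or more, 5 of them as bounds, and 2 (9.1%) lower, with a median of 0.80, or 0.20 over the 16 measured on both arrays. Besides Cldn6, the epithelial splicing regulator gene Esrp1 had 600.1 in epiblast, 95 in reverted and 99.98 in CGR8 cells (not detected) and was at least 15.2-fold higher. Lsr, which marks tricellular junctions, had 508 in epiblast, 118 in reverted and 97.5 in CGR8 cells (not detected) and was at least 12.4-fold higher. Rab25, a vesicle transport GTPase gene, was at least 7.52-fold higher and Ap1m2, an epithelial sorting adaptor gene, at least 7.47-fold higher. These 4 were detected in epiblast but not in embryonic stem cells. Grhl3, a transcription factor gene of surface ectoderm, was 5.46-fold lower. Cdh1, which encodes E-cadherin, had 516 in epiblast, 557 in reverted and 593 in CGR8 cells and was within 2-fold (1.11-fold lower), and Cdh2, which encodes N-cadherin, was detected on neither array. Taking the mean of all probes brought the log2 difference to 1.47, against 3.63, for Lsr and to 2.01, against 2.90, for Ap1m2.

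Mesenchymal genes gave 3 of 12 (25%) higher and 3 (25%) lower, with a median of -0.28. Zeb1, a repressor of E-cadherin, had 123 in epiblast, 189 in reverted and 285 in CGR8 cells and was 3.65-fold lower, and the intermediate filament gene Vim had 415 in epiblast, 789 in reverted and 1316 in CGR8 cells and was 3.40-fold lower. The metalloprotease gene Mmp2 had 318 in epiblast, 139 in reverted and 142 in CGR8 cells and was 3.59-fold higher, and Mmp14 was 2.60-fold higher. The smooth muscle actin gene Acta2, also on the fibroblast list, was at least 4.22-fold higher. Other processing put the log2 difference within 2-fold, without background correction for Mmp14 (0.92), and with the mean of all probes for Acta2 (0.61).

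Epiblast stem cells alone had grown with fibroblasts. Of 8 markers of feeder fibroblasts, 2 were detected in epiblast stem cells and 0 in embryonic stem cells. Thy1, a surface protein gene, had 286 in epiblast, 87.0 in reverted (not detected) and 86.7 in CGR8 cells (not detected) and was at least 6.21-fold higher. Dcn had 155 in epiblast, 77.9 in reverted (not detected) and 82.1 in CGR8 cells (not detected). The collagen genes Col1a1, Col1a2 and Col3a1, which fibroblasts express strongly, and Lum and Postn were detected on neither array. Summed over the 8 markers the raw signal was 959 in epiblast, 621 in reverted and 667 in embryonic stem cells, background included. On the wider fibroblast list 15 of 31 genes were detected on neither array, and of 14 measured 8 (57.1%) were higher by 2-fold or more, 6 of them as bounds, and 1 lower, with a median of 1.20. Without background correction 3 of the 14 were higher. Of the 5 detected on both arrays, 2 were higher and 1 lower, with a median of 0.77. The others, detected on 1 array only, could give a bound in 1 direction only. Bgn, a proteoglycan gene, was at least 3.17-fold higher, and Col5a1, a fibrillar collagen gene, was 3.19-fold lower. The part of feeder RNA in differences of mesenchymal, adhesion, imprinted and MHC genes was not tested. Log2 differences within 2-fold were obtained without background correction for Bgn (0.80).

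Basement membrane genes were lower or within 2-fold. Of 13 measured, 7 (53.8%) were lower by 2-fold or more, 1 of them as a bound, and 0 higher, with a median of -1.06. Besides Lama1, the laminin-binding linker gene Nid1 had 86.8 in epiblast (not detected), 199 in reverted and 343 in CGR8 cells and was at least 8.68-fold lower. Dag1, the laminin receptor dystroglycan, had 227 in epiblast, 739.7 in reverted and 1068 in CGR8 cells and was 5.89-fold lower. The heparan sulfate proteoglycan gene Agrn was 3.29-fold lower, Nid2 2.28-fold lower and the fibulin gene Fbln1 2.78-fold lower. The lower genes thus included a laminin chain, its linkers and its receptor. The log2 difference came within 2-fold with the mean of all probes for Fbln1 (-0.80).

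Other adhesion genes went both ways, with 5 of 18 (27.8%) higher by 2-fold or more and 6 (33.3%) lower and a median of 0.13. Pecam1, a surface marker of naive cells and endothelium, had 101 in epiblast, 445 in reverted and 688 in CGR8 cells and was 16.7-fold lower. The tetraspanin gene Cd9 had 408 in epiblast, 2489 in reverted and 3818 in CGR8 cells and was 11.1-fold lower, and Icam1, an immunoglobulin-type adhesion receptor gene, had 247 in epiblast, 887 in reverted and 1685 in CGR8 cells and was 8.63-fold lower. Jam2 was at least 7.76-fold lower. The nectin gene Nectin2, of adherens junctions, had 730.1 in epiblast, 300.1 in reverted and 252 in CGR8 cells and was 3.84-fold higher. Averaging all probes of a gene reduced the log2 difference to -2.97, against -4.06, for Pecam1 and to -1.96, against -2.96, for Jam2.

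Among genes of other lineages, endoderm genes were lower or within 2-fold. Of 24 primitive and extraembryonic endoderm genes on the array 13 were detected on neither array. Of 11 measured 5 (45.5%) were lower by 2-fold or more and 0 higher, with a median of -1.0. Gata6, the driver of primitive endoderm, had 121 in epiblast, 239 in reverted and 601 in CGR8 cells and was 9.22-fold lower. The endocytic adaptor gene Dab2 had 102 in epiblast, 132 in reverted and 358 in CGR8 cells and was 7.56-fold lower, and the apolipoprotein gene Apoe had 347 in epiblast, 1799 in reverted and 1535 in CGR8 cells and was 5.02-fold lower. Signals of Gata6 and Dab2 in reverted cells lay below those in embryonic stem cells. The other lower genes were Rhox5 and Lama1, which also count in the germline and basement membrane lists above. Amn, an endodermal receptor gene, was 1.999-fold lower and just within 2-fold. The mean of all probes reduced the log2 difference to -1.27, against -2.92, for Dab2.

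For trophoblast, 3 of 10 (30%) were lower and 0 higher, with a median of -0.49. Tfap2c, a transcription factor gene of trophoblast and germ cells, had 165 in epiblast, 2603 in reverted and 2169 in CGR8 cells and was 20.6-fold lower. The other lower genes were the ETS factor gene Ets2 (2.33-fold lower) and Bmp4, which also counts in the BMP list above. Arid3a (1.46-fold lower) and Furin (1.41-fold higher) were within 2-fold, with a bound of at least 1.48-fold lower for Tead4. Of 27 neuroectoderm genes 20 were detected on neither array, and of 6 measured 3 (50%) were higher and 2 (33.3%) lower. Besides Otx2 and Gbx2, Zic2, a zinc finger factor gene, had 548 in epiblast, 149 in reverted and 142 in CGR8 cells and was 6.89-fold higher. The filament gene Nes was at least 4.56-fold higher and the midbrain factor gene En2 at least 5.32-fold lower, while the Notch target Hes1 was 1.33-fold lower and within 2-fold. Streak and definitive endoderm genes had 2 of 9 (22.2%) higher and 2 (22.2%) lower. Hhex was 2.78-fold lower, and the BMP antagonist gene Chrd 1.84-fold lower and within 2-fold. Fgf8 and Wnt8a, the higher genes, and Gsc, the other lower one, were given above. The 2-cell-like list had 1 value, Eif1a, 1.01-fold lower. Endothelial and blood genes had 1 of 5 higher, Egfl7 2.33-fold higher, and 1 lower, Laptm5, while Plvap (at least 1.97-fold higher), Tek (at least 1.98-fold lower) and Lmo2 (at least 1.53-fold higher) had bounds under 2-fold. Other processing put the log2 difference within 2-fold, without background correction for Hhex (-0.92), and with the mean of all probes for Egfl7 (0.80). The log2 difference shrank with the mean of all probes to -3.77, against -4.36, for Tfap2c and to 1.16, against 2.19, for Nes.

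Cholesterol synthesis genes were higher or within 2-fold. Of 18 measured 4 (22.2%) were higher by 2-fold or more and 0 lower, with a median of 0.21. Lss, the lanosterol synthase gene, had 667 in epiblast, 179 in reverted and 202 in CGR8 cells and was 4.71-fold higher. Mvd of the mevalonate pathway had 1007 in epiblast, 239 in reverted and 309 in CGR8 cells and was 4.16-fold higher, and Dhcr7, the last step to cholesterol, had 522 in epiblast, 141 in reverted and 189 in CGR8 cells and was 3.901-fold higher. Msmo1 was 2.15-fold higher, while Fdps was 1.89-fold higher and Insig1, which holds back the pathway, 1.83-fold lower, both within 2-fold.

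In glycolysis, enzymes differed in direction, with 5 of 22 (22.7%) higher by 2-fold or more and 3 (13.6%) lower and a median of 0.11. Pkm, the pyruvate kinase gene, had 13628 in epiblast, 4828 in reverted and 4062 in CGR8 cells and was 2.92-fold higher. Pfkp, a phosphofructokinase gene, had 347 in epiblast, 1338 in reverted and 2482 in CGR8 cells and was 8.35-fold lower, and the hexokinase gene Hk2 had 3554 in epiblast, 5435 in reverted and 8705 in CGR8 cells and was 2.72-fold lower. Eno2, an enolase gene, had 301 in epiblast, 265 in reverted and 126 in CGR8 cells and was 4.23-fold higher, with the reverted signal near the epiblast one. The lactate transporter gene Slc16a3 was 5.23-fold higher and the oxygen sensor gene Egln3 2.85-fold higher, while Ldha was 1.70-fold higher and within 2-fold. Log2 differences within 2-fold were obtained with the mean of all probes for Slc16a3 (0.81). Taking the mean of all probes brought the log2 difference to -2.08, against -3.06, for Pfkp.

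Respiratory chain genes were mostly within 2-fold, 28 of 31, with a median of 0.04. Of the complex I genes Ndufb9 was 2.14-fold higher, Ndufa2 2.01-fold higher and Ndufv1 2.02-fold lower, and without background correction none of the list was past 2-fold. Cox4i1 of complex IV was 1.72-fold lower, Sdhc of complex II 1.60-fold lower and Ndufa1 1.80-fold higher, all within 2-fold. Other processing put the log2 difference within 2-fold, without background correction for Ndufa2 (0.98), Ndufb9 (0.72) and Ndufv1 (-0.99); with an offset of 50 for Ndufa2 (0.99) and Ndufb9 (0.87); with median scaling for Ndufv1 (-0.84); with the authors' processed values for Ndufa2 (0.97).

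Of one-carbon and serine genes, 3 of 15 (20%) were higher and 2 (13.3%) lower, with a median of 0.13. The 3 higher genes belong to serine synthesis and mitochondrial folate use. Psat1 had 8288 in epiblast, 1884 in reverted and 1749 in CGR8 cells and was 4.47-fold higher, Phgdh had 1459 in epiblast, 691 in reverted and 423 in CGR8 cells and was 4.13-fold higher, and Mthfd2 had 669 in epiblast, 337 in reverted and 341 in CGR8 cells and was 2.34-fold higher. The cytosolic folate genes Shmt1 (2.18-fold lower) and Aldh1l1 (1.68-fold lower, within 2-fold) and the glycine cleavage gene Amt (at least 2.38-fold lower) lay the other way. The log2 difference came within 2-fold without background correction for Amt (-0.51) and Shmt1 (-0.88), and with an offset of 50 for Amt (-0.71) and Shmt1 (-0.99).

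Integrated stress response genes, of which Psat1 and Phgdh are also known targets, were mixed, with 6 of 21 (28.6%) higher by 2-fold or more and 3 (14.3%) lower and a median of 0.13. Chac1, a glutathione-degrading enzyme gene and ATF4 target, had 2773 in epiblast, 849.9 in reverted and 453 in CGR8 cells and was 7.21-fold higher. Cebpb, a bZIP factor gene, had 981 in epiblast, 399 in reverted and 243 in CGR8 cells and was 5.56-fold higher. Ddit3, which encodes CHOP, had 139.7 in epiblast, 436 in reverted and 725 in CGR8 cells and was 8.54-fold lower, and the stress factor gene Nupr1 had 164 in epiblast, 1004 in reverted and 754 in CGR8 cells and was 6.68-fold lower. Atf4 and Chac1 were thus higher while Ddit3 and Nupr1 were lower. The lipoprotein receptor gene Vldlr was 3.34-fold higher.

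Among heat shock genes 12 of 15 were within 2-fold, as were 72.7% of all genes. The small heat shock protein gene Hspb1 had 264 in epiblast, 2915 in reverted and 2605 in CGR8 cells and was 12.5-fold lower, and Hspb8 was 5.42-fold lower. The mitochondrial chaperonin gene Hspe1 was 3.17-fold higher, and Hspa9 (1.67-fold lower), Hsph1 (1.79-fold lower) and Bag3 (1.66-fold higher) were within 2-fold. Antioxidant genes had 8 of 29 (27.6%) lower and 4 (13.8%) higher, with a median of -0.40. Besides Gstp2, the glutathione transferase gene Gsta3 was at least 6.07-fold lower, the quinone reductase gene Nqo1 4.27-fold lower and their regulator Nfe2l2, which encodes NRF2, 2.83-fold lower. The transferase gene Gsto1 had 1168 in epiblast, 399 in reverted and 336 in CGR8 cells and was 4.33-fold higher, and Gclm of glutathione synthesis was 2.84-fold higher. Other processing put the log2 difference within 2-fold, without background correction for Nfe2l2 (-0.90), and with the mean of all probes for Gsta3 (-1.0) and Nfe2l2 (-0.80). Averaging all probes of a gene reduced the log2 difference to -1.11, against -2.09, for Nqo1.

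MHC class I and interferon genes had 6 of 18 (33.3%) higher, 2 of them as bounds, and 3 (16.7%) lower, with a median of 0.37. Psmb10, an immunoproteasome subunit gene, had 741 in epiblast, 244 in reverted and 185 in CGR8 cells and was 6.10-fold higher. The nonclassical class I gene H2-T23 had 362 in epiblast, 169.9 in reverted and 146 in CGR8 cells and was 3.95-fold higher, and the GTPase gene Irgm1 had 3833 in epiblast, 1060 in reverted and 1142 in CGR8 cells and was 3.50-fold higher. Gbp2 was at least 11.7-fold higher, the antiviral gene Bst2 3.40-fold higher and Ifitm1 at least 2.95-fold lower. Any part of feeder RNA in these differences was not tested. A log2 difference within 2-fold was given without background correction for Bst2 (0.99) and Ifitm1 (-0.68); with an offset of 50 for Ifitm1 (-0.93); with the mean of all probes for Gbp2 (0.83) and Ifitm1 (-0.21). The mean of all probes reduced the log2 difference to 1.21, against 1.98, for H2-T23 and to 1.05, against 1.81, for Irgm1.

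Cell cycle genes had 4 of 25 (16%) higher by 2-fold or more and 6 (24%) lower and a median of -0.07. The D-type cyclins, which drive entry into S phase, were set apart from each other: Ccnd1 was higher, Ccnd2 was at least 3.40-fold higher, and Ccnd3 had 858 in epiblast, 2715 in reverted and 3764 in CGR8 cells and was 4.57-fold lower. The inhibitor gene Cdkn1c was higher and Cdkn2a was at least 3.83-fold lower. The mitotic kinase gene Plk1 had 901 in epiblast, 1384 in reverted and 2622 in CGR8 cells and was 2.92-fold lower. Log2 differences within 2-fold were obtained without background correction for Ccnd2 (0.86) and Cdkn2a (-0.90). The log2 difference shrank with the mean of all probes to -1.55, against -2.19, for Ccnd3.

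Myc family and target genes were mostly within 2-fold, 15 of 19, as were 72.7% of all genes, with a median of 0.10. The pyrimidine synthesis gene Cad was 2.92-fold higher, the spermidine synthase gene Srm 2.49-fold higher and the nucleolar gene Nop58 2.32-fold higher, while Rcc1 was 2.04-fold lower and Ncl 1.76-fold higher, the last within 2-fold. Polycomb and chromatin regulators likewise stayed mostly within 2-fold, 27 of 35, with 4 (11.4%) higher and 4 (11.4%) lower, near the shares of all genes. Mtf2 and Suz12, both of Polycomb repressive complex 2, were lower. Mtf2 had 306 in epiblast, 716 in reverted and 1243 in CGR8 cells and was 4.67-fold lower, and Suz12 had 1378 in epiblast, 3435 in reverted and 4142 in CGR8 cells and was 3.09-fold lower. Bmi1 of Polycomb repressive complex 1 was at least 2.95-fold lower. The arginine methyltransferase genes Carm1 and Prmt5 were 6.17-fold higher and 3.02-fold higher, and Chd4 of the NuRD complex was 3.22-fold higher. A log2 difference within 2-fold was given without background correction for Bmi1 (-0.68) and Rcc1 (-0.78); with an offset of 50 for Bmi1 (-0.93) and Rcc1 (-0.88); with median scaling for Rcc1 (-0.99).

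Of 12 reference genes 9 were within 2-fold, as were 72.7% of all genes, with a median of 0.04. Those past it were Hprt (2.01-fold higher), the transferrin receptor gene Tfrc (2.40-fold lower) and Pgk1 (2.27-fold lower). The Pgk1 probe was dim on all arrays, with 114.9 in epiblast, 111.1 in reverted and 184 in CGR8 cells. B2m (1.71-fold higher), Tbp (1.33-fold lower) and Rpl13a (1.31-fold higher) were within 2-fold. Log2 differences within 2-fold were obtained without background correction for Hprt (0.99) and Pgk1 (-0.61); with an offset of 50 for Hprt (1.00) and Pgk1 (-0.80); with the authors' processed values for Hprt (0.98); with the mean of all probes for Hprt (0.54).

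**Figure D4:**
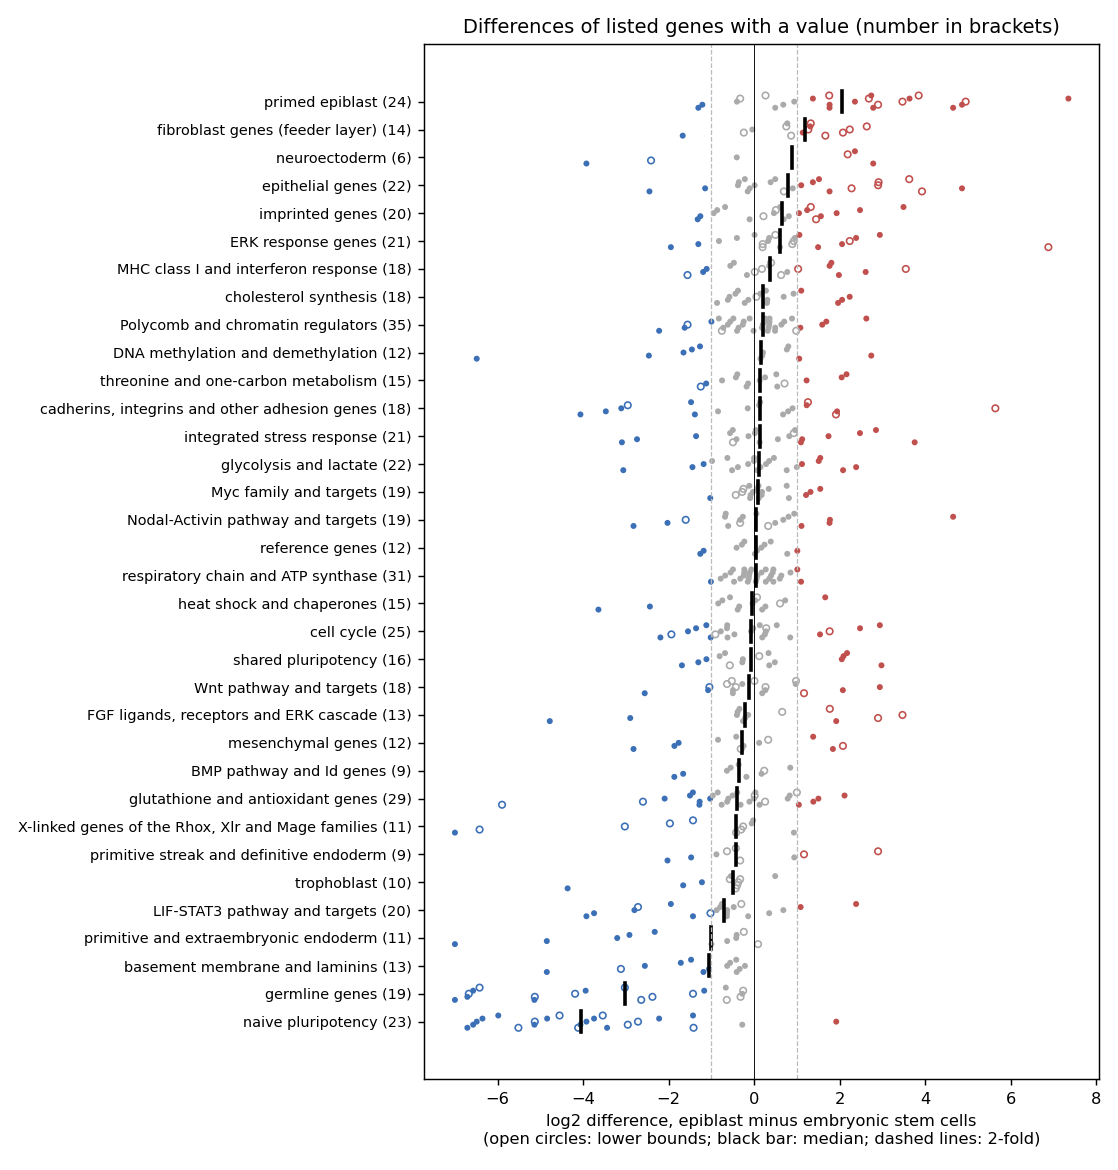
Log2 difference (epiblast minus embryonic stem cells) of each gene with a value on 34 gene lists, with the number of genes in brackets; red and blue points are at least 2-fold higher and lower, open circles are lower bounds, bars are medians and dashed lines mark 2-fold. The primed list has the highest median, at 2.06, and the naive list the lowest, at -4.06, while the medians of most metabolic lists lie near 0.

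Differing genes lay on every autosome and on the X chromosome, unevenly in places. Chromosome 14 had 64 of its 254 measured genes (25.2%) higher by 2-fold or more and 21 (8.3%) lower, against 13.9% and 13.4% over all genes, with a median difference of 0.226. On the X chromosome 56 of 265 (21.1%) were higher and 37 (14%) lower. Chromosome 16 had the fewest higher, at 8.4%, followed by chromosome 5 at 8.9%. Otx2, Zic2, Mmp14 and Prmt5 are among the higher genes of chromosome 14, and Klf5 and Bmp4 are among its lower ones. Under the other settings 14.2% to 28.7% of chromosome 14 genes were higher, the lowest share coming without background correction, where the share over all genes was 7%.

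**Figure D5:**
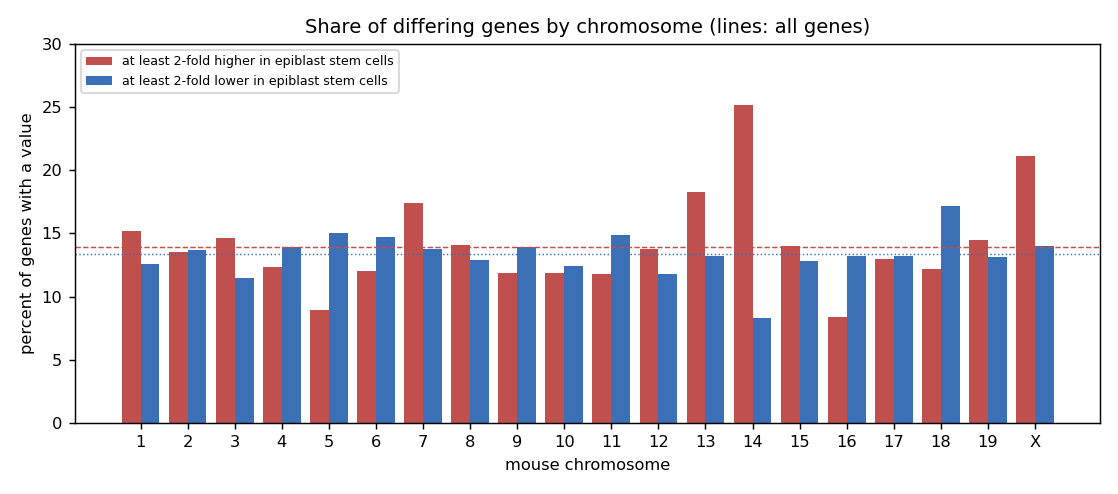
Percent of the genes with a value on each mouse chromosome that were at least 2-fold higher (red) or lower (blue) in epiblast than in embryonic stem cells; the dashed and dotted lines are the shares over all genes, 13.9% and 13.4%. Chromosome 14 has the tallest red bar, 25.2%, and its blue bar, 8.3%, is the lowest of the chromosomes drawn.

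Different probes of a gene were the only repeat measure on these arrays. Of 2005 genes with at least 2 probes that gave a value, 584 were past 2-fold with the probe used. All probes pointed the same way in 509 of these (87.2%), and all were past 2-fold in 225 (38.5%). Probes without a value are left out of these shares. Gbp2, with 3 probes, had a log2 difference of at least 3.55 with the probe used and 0.83 with their mean. Whether its other probes gave a value is not shown, so it may lie outside these counts. Dnmt3l kept -6.25 with the mean against -6.49, and Dnmt3b 2.98 against 2.74.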

How the data were processed

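RNA of 3 mouse cell lines had been hybridised to Illumina bead arrays, 1 array each; per the labels' protocols 400 ng RNA went into an amplification by in vitro transcription for 12 h. For 25697 probes per array the authors deposited a detection p-value and a raw signal intensity with its bead standard error. The submitters' processing notes name BeadStudio. The deposited table of processed intensity values, made by a normalization not given in the sources used here, served as an alternative. It gave values for 12582 probes on the epiblast, 12582 on the reverted and 12584 on the embryonic array. Probes without a processed value were set to 8, the lowest value given.

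Raw intensities of the 3 arrays were normalized by neqc of limma 3.58.1, run in R 4.3.3 (background from detection p-values, offset 16, quantile, log2), tested on simulated data. Differences, lists and counts were computed in Python 3.11.15 (pandas 2.3.3). A platform table gave 1 gene symbol for 23978 probes, updated by gene identifier for 23962; 1719 had none. A gene with several probes (4777 of 16593) took its brightest probe, by the mean over the 3 arrays. Detection was a p-value under 0.01. The floors for undetected signals were log2 4.87 (epiblast), 5.06 (reverted) and 5.10 (embryonic); 356 genes detected on 1 array had no value since the bound left no difference. The median bead standard error of a log2 difference was 0.13. Samples were grouped by their labels.

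The members, the 37 gene lists (885 of 1000 entries on the array) and the threshold of 2-fold were chosen with earlier results of these data known. Named are the 12 largest differences in each direction among genes detected on both arrays, the 8 largest bounds in each direction, of each list the members with the largest differences, 6 at most, and 24 fixed markers. T was not analysed here. Alternatives were no background correction, a model offset of 50, median scaling, the 2 arrays alone, the authors' processed values, detection at 0.05 or on both arrays, averaging the probes of a gene, counting every probe, and 3-fold in place of 2-fold.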

Additional observations from a re-analysis of the deposited data

How the results depend on the processing

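Counts past the threshold were 1067 genes higher and 1035 lower in epiblast stem cells. Without background correction they were 538 higher and 572 lower. With an offset of 50 they were 690 higher and 721 lower, and at 3-fold 410 higher and 467 lower, where the threshold itself is stricter. Under median scaling, the 2 arrays alone, the authors' processed values, detection at 0.05, detection on both arrays, averaged probes and every probe counted, both counts stayed within 1.5 times, from 825 to 1332 higher and from 825 to 1417 lower. Of 177 named genes past 2-fold, 28 were within it without background correction, 15 with the offset of 50 and 15 with averaged probes. With median scaling 3 were within it, and with the authors' processed values 2. That 0 changed direction says little, since a bound cannot reverse and most settings rescale the same probe. Detection on both arrays gave values for 129 of the 177. With the mean of probes 36 had a fold over 1.5 times smaller, and with the authors' processed values 58 had one over 1.5 times larger. Probes without a processed value had been set to 8, and how far this made the 58 folds larger was not tested. Dim genes are limited by the array background, which lay near the median raw signals of 89.2 (epiblast) and 92.9 (embryonic). No paired analysis was possible because each group has 1 array. Leaving out an array would leave a group empty.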

Other observations

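Along the chromosomes, genes with a value were taken in runs of 25 neighbours, a description chosen after the data were seen. Of 299 runs, the median held 3 genes at least 2-fold higher in epiblast stem cells and 3 lower. A run on chromosome 14 from Pnp to Pabpn1 held 13 higher and 0 lower, with median log2 signals of 8.07 in epiblast, 7.69 in reverted and 7.01 in embryonic stem cells. The next run, from Slc22a17 to Cryl1, held 11 higher and 1 lower. Its median log2 signals were 6.38 in epiblast, 7.06 in reverted and 6.25 in embryonic stem cells, so the reverted array was highest there. A run on chromosome 13 from Stard3nl to H3c8, which takes in part of a histone gene cluster, held 11 higher and 0 lower. Whether its probes tell related histone genes apart was not tested. Runs on chromosome 1 from Hjurp to Bok and on the X chromosome from Vamp7 to Ftsj1 each held 10 higher and 2 lower. The run with most lower genes, 10 with 0 higher, lay on chromosome 5 from Mospd3 to Zfand2a. These end genes are named only to place the runs.

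For 7 genes another probe was past 2-fold in the opposite direction to the probe used: Ap2b1, Atp2a3, Kdm6b, Med25, Rpap3, Smc1a and Vars. The widest span was that of Smc1a, a cohesin subunit gene, with log2 differences from -1.59 to 1.73 over 4 probes. These genes were named after their values were seen. Of 1719 probes without a gene name 636 gave a value, of which 100 were at least 2-fold higher and 73 lower, together 27.2%.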
